A study of Mus musculus with 4 samples.

Results

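Interferon-lit myocardium is the name used here for heart spots that carry cardiomyocyte transcripts together with a high level of Gbp6, a guanylate-binding GTPase that interferons induce. A spot is a small barcoded area of a Visium slide that can hold several cells of different types. A lit spot had at least 5000 UMIs (unique molecular identifiers, each counting 1 captured molecule), Myh6 at 1% or more of its UMIs, Myh7 under 3000 CPM (counts scaled to a common library size of 1e+06) and Gbp6 at 800 CPM or more, so the members were chosen by these measured levels of Gbp6, Myh6 and Myh7. The rule found 1841 lit spots among the 10744 spots of 4 sections. The 3689 comparison spots met the same UMI, Myh6 and Myh7 limits in the same sections but had Gbp6 under 800 CPM.

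The sections came from formalin-fixed hearts of wild type FVB/NJ mice. All had been primed by immunization against a MyHCα peptide, from the alpha cardiac myosin heavy chain that Myh6 encodes. Every mouse also received anti-PD-1 and anti-CTLA-4, a pair of immune checkpoint inhibitors (ICIs). For 2 sections nothing more was given (ICI-alone), and by the labels this group developed myocarditis. For the other 2 a neutralizing antibody to IL-17A was added (antibody sections). Each group has a section in batch 1 and a section in batch 2, and these numbers name the sections below. No age or time of collection is stated. Whether each section is a different animal is not stated either, and p-values therefore cover only section-to-section spread, which may be technical. Untreated hearts were not analysed here.

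Interferon-gamma, made mainly by activated T cells and natural killer cells, acts through the kinases JAK1 and JAK2 on factors that bind GAS elements. Type I interferons act through a complex that holds IRF9 and binds ISRE elements. The induced genes include guanylate-binding proteins (Gbp genes), immunity-related GTPases (Irgm1, Irgm2, Igtp and Iigp1), which act on membranes around intracellular pathogens, and the machinery that loads peptides on MHC class I. Cardiomyocytes express little of this machinery at rest. The Gbp family has close paralogs, and nothing used here names the probes, so reads of near-identical members such as Gbp6 and its neighbours cannot be assigned with certainty.

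The ICI-alone sections held 2503 and 3052 spots, and the antibody sections 2604 and 2585. The median spot held 27912 and 20623 UMIs in the ICI-alone sections, against 18342 and 12298 in the antibody sections. The Myh6 and Myh7 limits kept 1014 and 369 spots with ICIs alone against 2057 and 2090 with the antibody, so the myocardium examined was a smaller part of the ICI-alone sections. Of spots deep enough, the Myh6 limit removed 1370, 2251, 427 and 433 in that order, and the Myh7 limit 108, 428, 15 and 25 more. Cardiomyocyte transcripts were abundant in lit spots: a list of 16 ventricular sarcomere genes without Myh6 and Myh7 summed to 75469, 68846 and 65108 CPM, against 76788, 78911 and 63556 CPM in the comparison spots. The barcode is a grid position on the slide, and 1670 of 3774 positions were used in all 4 sections.

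Regulatory sequence was read for genes that were higher in lit spots by the test below. The 250 bases before the start of 3 of them are shown because they hold close matches to the GAS or ISRE pattern. The sequences are RefSeq's, assembly GRCm38.p6 (mm10), on the plus strand, which is the strand of each gene. Capitals mark each match to TTCNNNGAA (GAS) or to GAAA, any 2 bases and GAAA again (ISRE), searched on both strands. Gbp7 is at chr3:142530086-142530335, Gbp2 at chr3:142620413-142620662 and Ifit1, which encodes a protein that binds foreign RNA, at chr19:34640639-34640888.
Gbp7: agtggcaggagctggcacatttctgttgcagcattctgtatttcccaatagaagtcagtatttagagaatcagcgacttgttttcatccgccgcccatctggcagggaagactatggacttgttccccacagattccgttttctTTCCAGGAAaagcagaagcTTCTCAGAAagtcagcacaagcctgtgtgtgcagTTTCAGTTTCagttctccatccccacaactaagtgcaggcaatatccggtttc
Gbp2: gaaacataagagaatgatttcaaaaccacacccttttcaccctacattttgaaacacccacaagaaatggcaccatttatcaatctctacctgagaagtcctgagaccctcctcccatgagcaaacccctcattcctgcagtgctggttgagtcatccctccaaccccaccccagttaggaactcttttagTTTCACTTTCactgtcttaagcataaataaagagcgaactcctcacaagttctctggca
Ifit1: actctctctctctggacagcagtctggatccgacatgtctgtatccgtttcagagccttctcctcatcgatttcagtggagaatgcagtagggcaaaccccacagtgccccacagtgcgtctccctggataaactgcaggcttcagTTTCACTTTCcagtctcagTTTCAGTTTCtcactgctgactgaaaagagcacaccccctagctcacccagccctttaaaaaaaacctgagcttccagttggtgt
Gbp7 held 2 GAS matches and 1 ISRE match, none of which overlapped. Gbp2 held 1 ISRE match and Ifit1 held 2. Of the 17 genes called higher, 14 were in the promoter table with 15 promoters: 4 promoters (26.7%) held GAS and 5 (33.3%) held ISRE. Over all 32851 promoters the shares were 7.02% and 2.98%, and over the 13006 promoters of genes tested they were 6.08% and 2.68%. A match describes these letters and is not evidence of binding.

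The first comparison asked how much of the myocardium was lit with and without the antibody to IL-17A. With ICIs alone, 30 of 1014 spots were lit in section 1 (2.96%, Wilson 95% interval 2.08 to 4.19%) and 0 of 369 in section 2, with a Wilson upper limit of 1.03%. By the rule of 3 counts over the total, a count of 0 there allows a share of up to 0.813%. With the antibody, 567 of 2057 spots were lit in section 1 (27.6%, interval 25.7 to 29.5%) and 1244 of 2090 in section 2 (59.5%, interval 57.4 to 61.6%). Both antibody sections lay above both ICI-alone sections, and the order was the same within batch 1 and within batch 2. The mean difference was 42.1 percentage points. The exact two-sided permutation test gave p = 0.333, the smallest that 2 against 2 sections allow. The intervals cover counting error only. The highest Gbp6 level in any spot that met the limits in ICI-alone section 2 was 398 CPM, against 3335 CPM in antibody section 2.

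Depth touches this share, because 800 CPM is 4 UMIs in a spot of 5000. After each spot was thinned to 5000 UMIs 12.2% and 0.271% of spots were lit in the ICI-alone sections, against 34.1% and 63.3% in the antibody sections. The order of the sections stayed the same. The threshold cut through a continuum: 27, 142 and 180 spots lay within 100 CPM below it and 13, 119 and 183 within the next 100 CPM above it in ICI-alone section 1 and antibody sections 1 and 2. At a limit of 1600 CPM the mean difference between groups was 6.72 percentage points. In Gbp6 itself, which chose the spots, the summed level was 970 CPM in the lit and 318 CPM in the comparison spots of ICI-alone section 1. It was 1185 against 384 CPM in antibody section 1 and 1284 against 529 CPM in antibody section 2. The comparison spots of ICI-alone section 2 stood at 69.3 CPM.

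**Figure D1:**
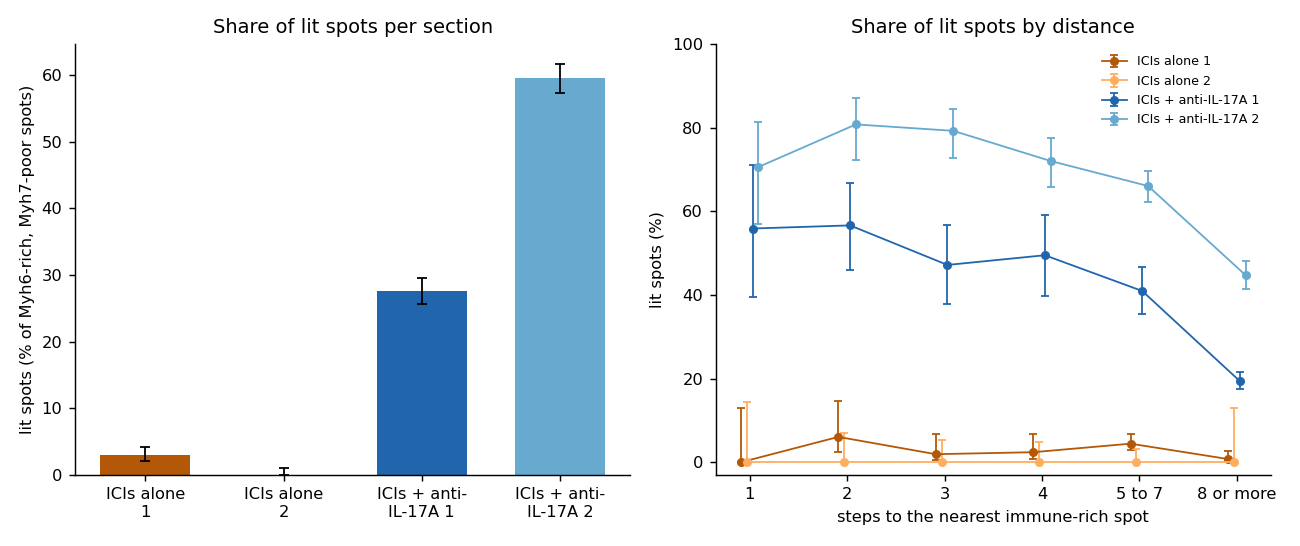
Left, bars give the lit share of spots that met the Myh6 and Myh7 limits in each section, in percent, with Wilson 95% intervals. Right, the same share with its interval is plotted by the number of grid steps to the nearest immune-rich spot, and in both antibody sections it is lowest at 8 or more steps.

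Lit spots had more lit neighbours than comparison spots had. In ICI-alone section 1, 14.8% of the neighbours of a lit spot that met the limits were lit, against 2.67% of those of a comparison spot. The shares were 64.7% against 13.1% in antibody section 1 and 73.2% against 41.1% in antibody section 2. The mean difference of 31.9 ± 19.7 percentage points (SD, n = 3) was positive in 3 of 3 sections, with an exact two-sided sign-flip permutation p of 0.25, the smallest that 3 sections allow. Lit spots formed 21, 59 and 69 patches in these sections. Single spots made up 17, 36 and 40 of these patches. The largest patch held 5, 226 and 1082 spots, which is 16.7%, 39.9% and 87.0% of the lit spots. In the authors' deposited table, Moran's I of Gbp6, a measure of how alike neighbouring spots are, was 0.458 and 0.440 in the ICI-alone and 0.569 and 0.389 in the antibody sections, over all spots.

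**Figure D2:**
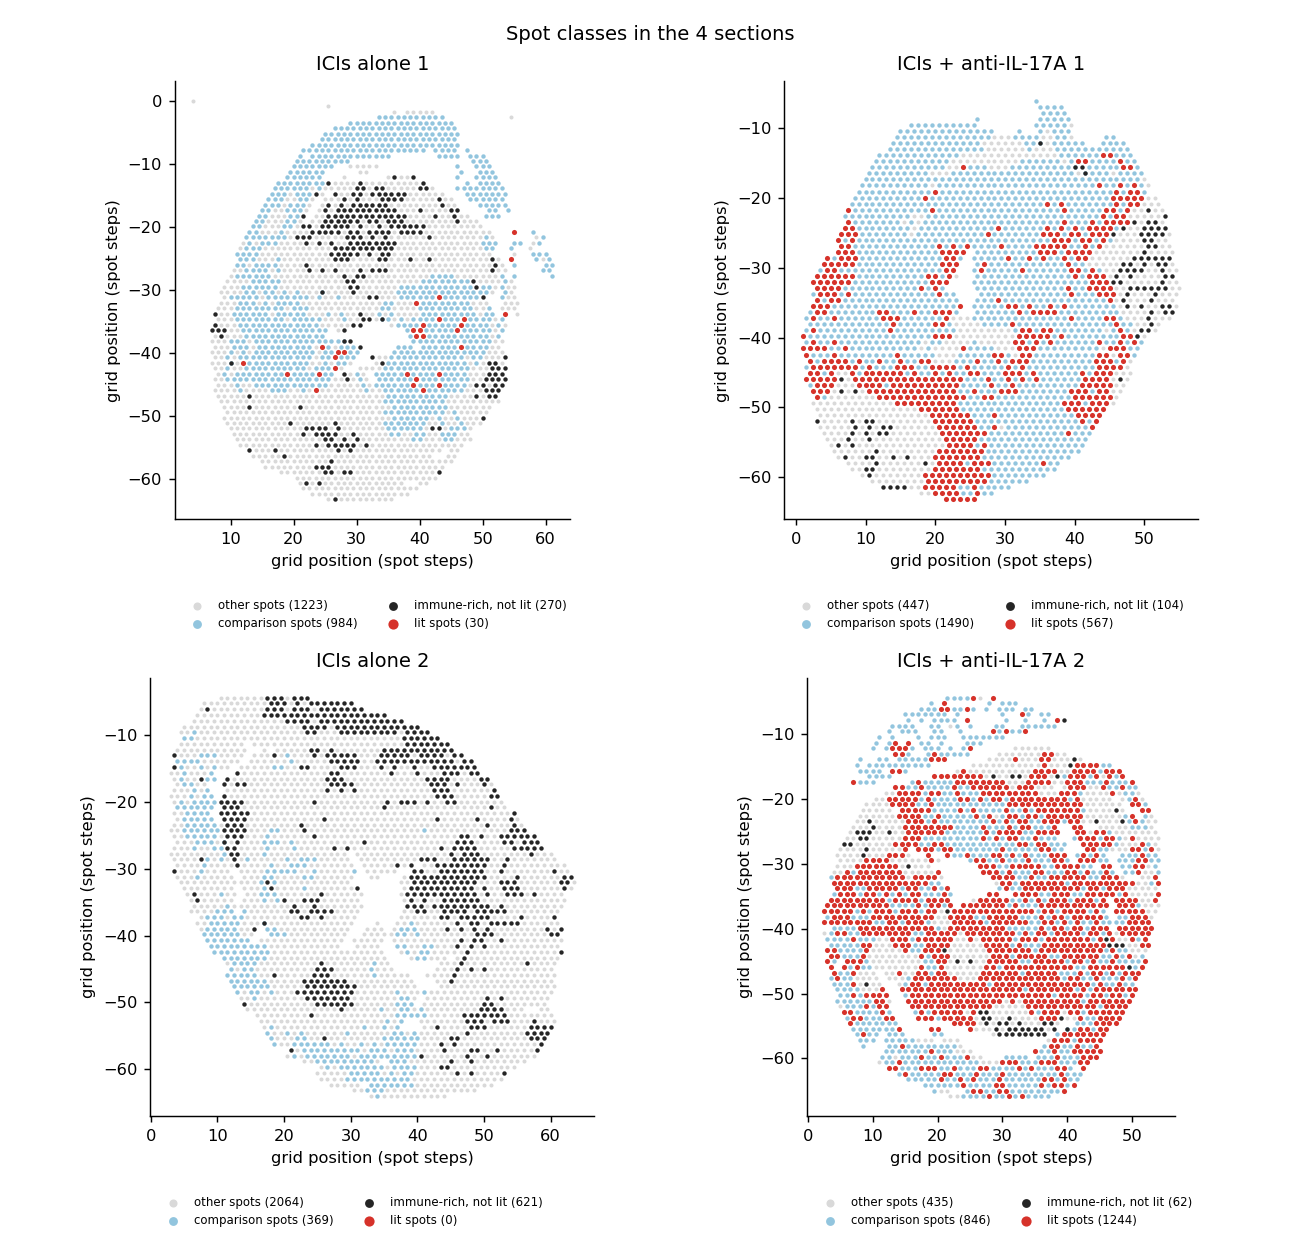
Each point is a spot under tissue at its grid position in steps, coloured red for lit, light blue for comparison, black for immune-rich but not lit (drawn over comparison spots) and grey for other spots, with numbers in the legends. In antibody section 2 the largest of 69 patches is a connected sheet of 1082 of the 1244 lit spots. Lit spots form bands in antibody section 1 (567 spots) and scattered points in ICI-alone section 1 (30 spots).

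Immune-rich spots were those with 32 or more UMIs of a panel of 22 leukocyte genes after thinning. About 10% of spots reached this threshold over all sections (1060 of 10744), but unevenly. They were 270 of 2503 and 621 of 3052 spots in ICI-alone sections 1 and 2. In antibody sections 1 and 2 they were 106 of 2604 and 63 of 2585 spots. Distances to immune-rich spots, and the later comparison with them, therefore rest on fewer such spots in the antibody sections. Few lit or comparison spots were immune-rich. In ICI-alone section 1 and antibody sections 1 and 2 they were 0, 2 and 1 lit spots (0%, 0.353% and 0.080%). Among comparison spots they were 4, 4 and 2 (0.407%, 0.268% and 0.236%). Lit spots lay a median of 6, 7 and 6 steps from the nearest immune-rich spot, and comparison spots 6, 13 and 8 steps. The median distance was shorter for lit spots in both antibody sections and equal in the ICI-alone section. The mean difference of -2.67 ± 3.06 steps (SD, n = 3) had an exact two-sided sign-flip p of 0.5. In antibody section 1 the lit share was 55.9% at 1 step (19 of 34 spots) and 19.4% at 8 or more steps (278 of 1431). In antibody section 2 it was 70.6% at 1 step (36 of 51), 80.8% at 2 steps (84 of 104) and 44.7% at 8 or more steps (399 of 892). In ICI-alone section 1 it was 0% at 1 step (0 of 26), 6.06% at 2 steps (4 of 66) and 0.766% at 8 or more (2 of 261), with overlapping intervals.

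The next comparison asked which other genes differ between lit and comparison spots of the same section. It rests on 3 sections, because ICI-alone section 2 held no lit spot and was left out. Counts were summed per section and class and tested with edgeR's quasi-likelihood test, the section as a block, with Benjamini-Hochberg adjustment. Of 13037 genes tested, 17 rose (0.13%) and 6 fell (0.046%) in lit spots. The calls depended on the settings: 1677 genes had an unadjusted p under 0.05, the number past the threshold ranged from 0 to 525, and in 10 of 19 alternatives at most 4 of the 23 calls were kept. Without ICI-alone section 1 it was 0, without antibody section 1 it was 225 and without antibody section 2 it was 345. In bulk sums of spots, more cells that express a gene and more RNA per cell cannot be told apart.

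Ifit2 had the smallest adjusted p among the rises, and 6 genes of the list of type I interferon stimulated genes passed. Ifit2, a relative of Ifit1, stood at 40.5 CPM in lit against 16.2 CPM in comparison spots of ICI-alone section 1. It stood at 63.1 against 15.9 CPM in antibody section 1 and at 56.5 against 22.99 CPM in antibody section 2. All 3 lit values lay above all 4 comparison values, the highest of which was 22.99 CPM. Its log2 fold change was 1.56 ± 0.14 (SE), with an adjusted p of 0.00816 (edgeR), and it passed in 13 of 19 alternatives, more than most genes named here. Ifit1 stood at 37.2 against 9.99, 59.1 against 10.5 and 59.0 against 29.9 CPM in the same order (log2 fold change 1.72 ± 0.24, adjusted p = 0.0439, edgeR). Ifit3 stood at 22.7 against 8.56, 95.5 against 13.9 and 83.8 against 40.5 CPM (1.81 ± 0.28, adjusted p = 0.0462, edgeR). For Ifit3 the lit value of ICI-alone section 1, from 14 UMIs, lay below the comparison value of antibody section 2. Oasl2, an oligoadenylate synthetase-like gene, and Irf7, a transcription factor that amplifies interferon production, had log2 fold changes of 1.24 and 1.17. Of the 29 tested members of the list of type I interferon stimulated genes, 6 rose and none fell, and 22 were higher in all 3 sections. Of all genes tested, 16.7% were higher in all 3 sections. The median log2 fold change was 0.85 over the list and -0.02 over all genes.

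Guanylate-binding proteins rose with them. Gbp2 stood at 453 against 198 CPM in ICI-alone section 1, 912 against 189 CPM in antibody section 1 and 834 against 470 CPM in antibody section 2 (log2 fold change 1.40 ± 0.22, adjusted p = 0.0462, edgeR). The lowest lit value of Gbp2 lay just under the highest comparison value. Gbp4 and Gbp7 had log2 fold changes of 1.05 and 1.03 and passed as well. Reads of close Gbp paralogs cannot be assigned with certainty, so rises of Gbp genes may partly repeat Gbp6, which chose the spots. Gbp4 stood at 175 against 94.6, 336 against 111 and 453 against 277 CPM. All 10 tested members of the GTPase list other than Gbp6 were higher in all 3 sections, and 3 passed. Gbp3 and Gbp5 had log2 fold changes of 1.05 and 1.06 (adjusted p = 0.0637 and 0.0673, edgeR). The immunity-related GTPases were the most abundant: Igtp stood at 2240 against 1487 CPM, 3472 against 1609 CPM and 3448 against 2338 CPM. Its log2 fold change was 0.72 ± 0.15 (adjusted p = 0.0733, edgeR). Irgm1, a regulator of this family, had 0.88 ± 0.17 (adjusted p = 0.0711) and Iigp1, an effector, 0.67 ± 0.14 (adjusted p = 0.0745). Summed over the 11 measured entries of the list without Gbp6, the level in CPM was 6172 against 4078, 9937 against 4226 and 10109 against 6805. It was 971 in the comparison spots of ICI-alone section 2. The comparison spots were thus not all alike: those of antibody section 2 carried more than the lit spots of ICI-alone section 1. Nor was the level particular to lit spots. Spots in neither class and not immune-rich summed to 7023, 9353 and 10869 CPM in ICI-alone section 1 and antibody sections 1 and 2. Their type I interferon list summed to 1729, 2817 and 3085 CPM, against 1079, 1958 and 2114 CPM in lit spots.

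**Figure D3:**
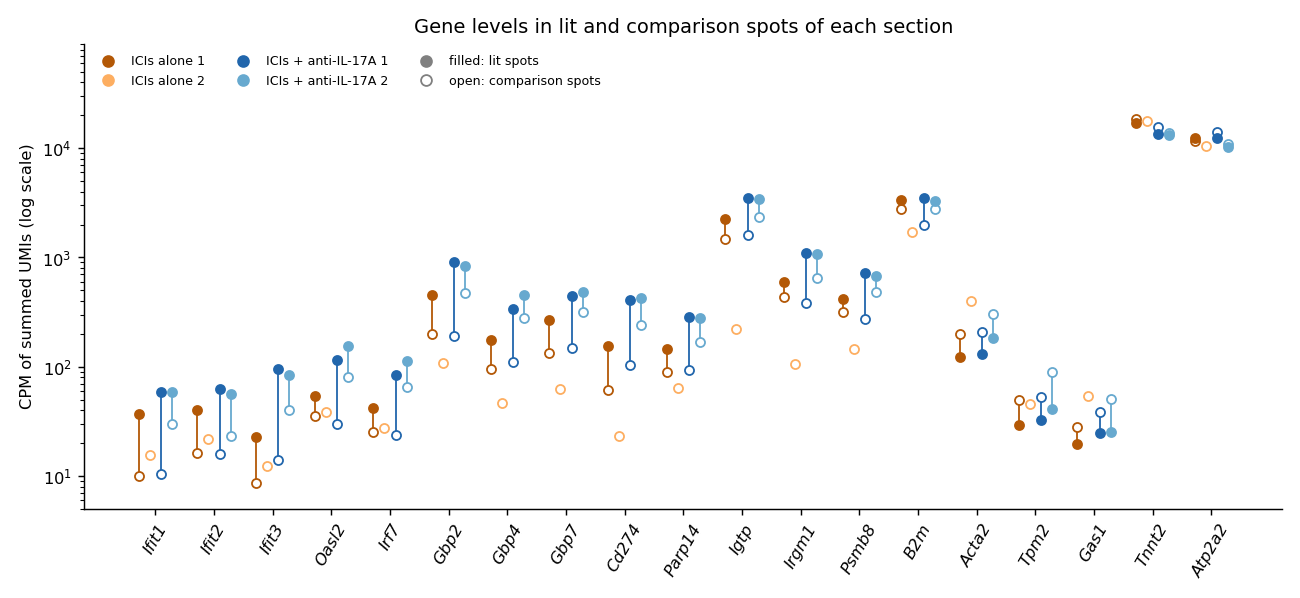
CPM of summed UMIs on a log axis for 19 genes, with filled points for lit spots, open points for comparison spots and a line joining the pair of each section. The 14 interferon-linked genes from Ifit1 to B2m lie higher in the lit spots of all 3 pairs, and ICI-alone section 2 has an open point only.

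The other called genes had various functions. Cd274, which encodes the checkpoint ligand PD-L1, stood at 154 against 61.1 CPM in ICI-alone section 1, 408 against 104 CPM in antibody section 1 and 428 against 239 CPM in antibody section 2. Its log2 fold change was 1.35 ± 0.18 (adjusted p = 0.0363, edgeR). Parp14, an ADP-ribosyltransferase, and Dtx3l, a ubiquitin ligase, had log2 fold changes of 1.03 and 0.93. Slc15a3, a lysosomal peptide transporter, had 1.12, Phf11d 0.97 and Hcls1, a cytoskeletal protein of blood cells, 0.89. The predicted gene Gm12185 passed too. The largest fold changes belonged to rare transcripts. Ccl17, a ligand of the receptor CCR4, had 2.37, but in ICI-alone section 1 it had 0 UMIs in lit spots against 0.521 CPM in comparison spots. Acod1, which makes itaconate in activated myeloid cells, had 2.19, with 3 UMIs in the lit spots of that section.

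Genes of interferon signalling lay higher in lit spots, mostly without passing. Irf1 had 0.89 ± 0.18 (adjusted p = 0.0711) and Nlrc5, the transactivator of MHC class I genes, 0.69 ± 0.13 (adjusted p = 0.0711). Socs1, a feedback inhibitor of JAK signalling, had 1.64 ± 0.30 (adjusted p = 0.0711). In the list of interferon signalling and transcription factors, 1 of 20 genes (Irf7) rose, none fell and the median was 0.55.

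Genes of antigen presentation were not called, where 0.176% of all genes tested were. None of 16 tested members of the MHC class I and peptide loading list passed, 10 were higher in all 3 sections and the median log2 fold change was 0.50. Tap1, a subunit of the peptide transporter, had 0.69 ± 0.15 (adjusted p = 0.0776) and H2-K1, a class I heavy chain, 0.54 ± 0.14 (adjusted p = 0.127). B2m, the light chain, stood at 3349 against 2750, 3519 against 1980 and 3292 against 2784 CPM. The 5 immunoproteasome genes had a median of 0.69 and the 13 constitutive proteasome genes 0.08, with no call in either list. Psmb8, an immunoproteasome subunit, had 0.75 ± 0.17 (adjusted p = 0.0911). MHC class II presentation had a median of 0.55 over 10 genes, again with no call. Its regulator Ciita had 0.87 ± 0.17 (adjusted p = 0.0711) and its invariant chain Cd74 0.53 ± 0.17 (adjusted p = 0.209).

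Cell death genes linked to interferon were also not called, against 0.176% of all genes tested. Of 19 tested, 11 were higher in all 3 sections and the median was 0.59. Zbp1, a sensor of Z-form nucleic acid, stood at 50.2 against 36.6, 126 against 21.4 and 146 against 81.6 CPM (log2 fold change 1.41 ± 0.30, adjusted p = 0.0776). Mlkl, the executor of necroptosis, had 0.86 ± 0.16 (adjusted p = 0.0711).

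Ifng, which encodes interferon-gamma, was rare, while Cxcl10 was more abundant. Ifng was read at 1.62 CPM in the lit spots of ICI-alone section 1, from 1 UMI, and at 5.85 and 8.25 CPM in those of antibody sections 1 and 2. Comparison spots had 0.782, 1.67 and 3.59 CPM. Its log2 fold change was 1.44 ± 0.28 (adjusted p = 0.0711, edgeR). Cxcl9 and Cxcl10, ligands of CXCR3, the receptor that guides effector T cells, had 2.13 ± 0.41 and 2.06 ± 0.38 (adjusted p = 0.0711 for each). Cxcl10 stood at 53.4 against 18.6, 191 against 16.9 and 200.2 against 97.0 CPM. The lit and comparison groups overlapped for Cxcl10, because the lit spots of ICI-alone section 1 lay under the comparison spots of antibody section 2.

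Markers of leukocytes were measured in the same spots. The 22-gene leukocyte panel summed to 1692, 1919 and 2188 CPM in lit spots and to 1759, 966 and 1909 CPM in comparison spots. In immune-rich spots it summed to 7278, 6666 and 7001 CPM. All 22 panel genes had a positive log2 fold change, against 5877 of all 13037 genes. None passed and the median was 0.55. The T cell list summed to 68.0, 122 and 101 CPM in lit and 38.2, 54.6 and 84.1 CPM in comparison spots, with a median of 0.84 over 16 genes. Cd3e, a subunit of the T cell receptor complex, had 0.78 ± 0.24 (adjusted p = 0.18), Cd8a 1.23 ± 0.52 (adjusted p = 0.351) and Nkg7, a cytotoxic granule gene, 0.75 ± 0.26 (adjusted p = 0.237). The list of cytotoxic lymphocytes had a median of 0.93 over 13 genes and that of macrophages and monocytes 0.32 over 16. Cd68, a macrophage marker, had 0.41 ± 0.15 (adjusted p = 0.271). The neutrophil list summed to 138, 56.0 and 117 CPM in lit and 316, 21.6 and 85.7 CPM in comparison spots. Spots with 5 or fewer panel UMIs after thinning included 7, 190 and 260 lit spots in ICI-alone section 1 and antibody sections 1 and 2. Among them 106 genes were higher and 20 lower in lit spots, including 17 of the 23 calls. In spots 2 or more steps from immune-rich spots, which kept 30, 546 and 1207 lit spots, 1 gene was higher (Ifit2) and 3 lower. These counts moved as widely as those of the other settings. The endothelial adhesion list had a median of 0.84 over 6 genes with no call, and Vcam1, an adhesion molecule for leukocytes, had 0.85 ± 0.26 (adjusted p = 0.187). The part of these cells in the interferon values was not tested.

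No gene of the cardiomyocyte lists passed, which is the likely outcome for lists of this size when 0.176% of all genes tested pass. None of 16 ventricular sarcomere genes did, and the median was -0.09, as it was for 23 genes of oxidative phosphorylation. It was -0.13 for 18 calcium handling and ion channel genes and -0.12 for 24 genes of fatty acid uptake and oxidation, again with no call. The values were small but mostly negative. In the order given, 0 of 16, 0 of 23, 2 of 18 and 3 of 24 were positive, against 5877 of all 13037 genes. In CPM, 4, 5, 6 and 7 of them were lower in all 3 sections, against 15.4% of all genes. Tnnt2, cardiac troponin T, stood at 16888 against 18682, 13496 against 15760 and 13169 against 13886 CPM (log2 fold change -0.18 ± 0.18, adjusted p = 0.751). Atp2a2, the calcium pump of the sarcoplasmic reticulum, had -0.10 ± 0.17 (adjusted p = 0.89). The list of cardiac stress and fetal genes had a median of 0.43 over 13 genes, with 12 positive and no call. Its summed level was lower in lit spots of ICI-alone section 1 (12104 against 17390 CPM) and antibody section 2 (16124 against 23505 CPM) and higher in those of antibody section 1 (10714 against 5429 CPM).

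The 6 genes that fell were Fgf12, Myl9, Tpm2, Pfkfb1, Gas1 and Acta2. Acta2, smooth muscle actin, stood at 123 against 201, 132 against 206 and 184 against 304 CPM (log2 fold change -0.72 ± 0.10, adjusted p = 0.0435, edgeR). It was the 1 gene called among 11 of the smooth muscle and pericyte list, whose median was -0.23. Gas1, a membrane protein that binds hedgehog ligands, had -0.82 ± 0.12 and Pfkfb1, a regulator of glycolysis, -0.91 ± 0.14. Myl9, a myosin light chain, and Tpm2, a tropomyosin, had -1.38 ± 0.15 and -0.93 ± 0.11. Fgf12 had -2.77 ± 0.29, but in ICI-alone section 1 its level was not lower in lit spots (3.24 against 1.26 CPM), and its highest value was 112 CPM in the comparison spots of antibody section 2. That section held 136 of the comparison spots and 29 of the lit spots with over 1% of UMIs on 6 atrial genes, against at most 5 in any other class and section. Without such spots Ifit2 alone passed, with log2 fold changes of -0.46 for Fgf12, -0.45 for Tpm2, -0.82 for Myl9, 1.40 for Gbp2 and 1.30 for Cd274.

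The GTPase level was lower farther from lit spots in all 3 sections. Gbp6, which defines the lit spots, was lower there too, at 1185, 523 and 403 CPM at 0, 1 and 2 steps in antibody section 1. In antibody section 1 the listed GTPases without Gbp6 summed to 9937 CPM in lit spots and 6022 CPM in comparison spots 1 step away. They summed to 4062 CPM at 2 steps and 2275 CPM at 5 or more. In antibody section 2 they summed to 10109, 7402, 4928 and 3829 CPM at 0, 1, 2 and 3 steps, the last from 34 spots. In ICI-alone section 1 they went from 6172 to 5055 CPM at 1 step and then stayed between 4945 and 5045 CPM up to 4 steps, with 3343 CPM at 5 or more steps. Within the lit class, spots were also sorted by Gbp6 itself, with no test. In antibody section 1 the GTPase sum was 8614 CPM in spots at 800 to 1200 CPM of Gbp6 and 13191 CPM at 1600 or more. In antibody section 2 these values were 9121 and 11770 CPM. Gbp6 chose the spots, and reads of its close paralogs in the sum cannot be separated from its own with certainty. The falls with distance and the sorted values are therefore descriptions and not separate support.

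**Figure D4:**
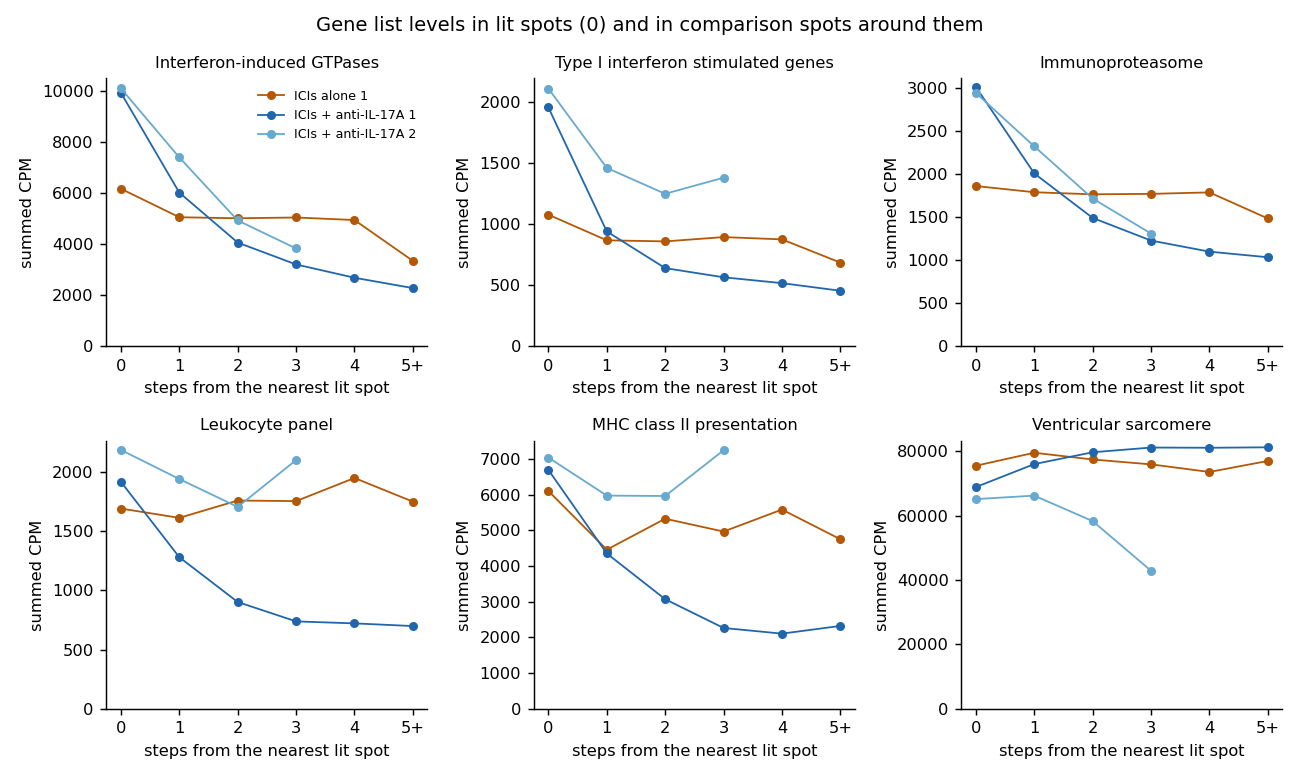
Summed CPM of 6 gene lists (without Gbp6, Myh6 and Myh7) in lit spots, at 0 steps, and in comparison spots by grid steps from the nearest lit spot. The GTPase sum falls from 9937 to 2275 CPM in antibody section 1 and from 10109 to 3829 CPM in antibody section 2. The sarcomere sum in antibody section 2 drops at 3 steps, where there are 34 spots.

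Lit spots were then set against immune-rich spots of the same sections that were not lit, where leukocytes are dense. This comparison was chosen after the data were seen, and the panel genes were left out because they define the immune-rich spots. Of 12414 genes tested with edgeR, 3153 were higher (25.4%) and 3289 lower (26.5%) in lit spots, 51.9% together. When scaled only by library size, 2345 were higher and 4989 lower, and the median of all genes shifted by -0.31 on the log2 scale.

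Of the 10 interferon-induced GTPases, 3 were higher, 3 lower and 4 did not pass, shares near those of all genes in this comparison. A difference between the GTPase families was not tested. The 3 higher ones were immunity-related GTPases. Igtp stood at 2240 CPM in lit against 1540 CPM in immune-rich spots of ICI-alone section 1, 3472 against 1434 CPM in antibody section 1 and 3448 against 1925 CPM in antibody section 2. Its log2 fold change was 1.20 ± 0.32 (adjusted p = 0.00618, edgeR). Iigp1 had 1.35 ± 0.28 (adjusted p = 0.00116) and Irgm2 1.07 ± 0.24 (adjusted p = 0.0024), both past the threshold in all 8 alternatives. Igtp passed in 6 of 8, and not without antibody section 1 (1.02) or without ICI-alone section 1. Irgm1 had 0.58 ± 0.26 (adjusted p = 0.0739). The 3 lower ones were guanylate-binding proteins. Gbp2 stood at 453 against 1495, 912 against 1761 and 834 against 1467 CPM (-0.83 ± 0.28, adjusted p = 0.0244). Gbp5 had -0.89 ± 0.19 (adjusted p = 0.00189) and Gbp4 -0.70 ± 0.23 (adjusted p = 0.0222). For all 6 genes the direction was the same in all 8 alternatives. Without ICI-alone section 1 the values were -0.44 for Gbp2, -0.44 for Gbp4 and -0.64 for Gbp5, and none of these 3 passed. Without antibody section 1, Gbp2 (-0.93) and Gbp4 (-0.60) did not pass. Igtp, Iigp1 and Irgm2 were also higher in the comparison spots than in the immune-rich spots of antibody sections 1 and 2: Igtp stood at 1609 and 2338 CPM there.

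The other interferon lists differed among themselves. Of 29 type I interferon stimulated genes, 3 were higher and 8 lower in lit spots, and the median was -0.09. Of 16 MHC class I and peptide loading genes, 9 were lower and 1 higher (H2-T24, 1.29 ± 0.33). H2-K1 had -0.65 ± 0.22 (adjusted p = 0.0261) and H2-Q7, a non-classical class I gene, -1.87 ± 0.21. All 10 class II genes and 7 of 8 T cell genes outside the panel were lower, while all 16 sarcomere genes were higher. Myh6 chose the lit spots and leukocyte genes chose the immune-rich spots. These directions therefore follow largely from the choice of spots and are not separate support. Irf1, Cd274 and Cxcl9 had log2 fold changes of -0.81, -0.85 and -1.86 and passed. Without ICI-alone section 1, H2-K1 (-0.57), Irf1 (-0.44) and Cd274 (-0.49) did not pass, nor did they without antibody section 1 (-0.52, -0.82 and -0.77). H2-T24 had 0.81 without antibody section 1 and did not pass. Psmb8, at -0.22 ± 0.24 (adjusted p = 0.455), and Psmb9, at -0.20 ± 0.23 (adjusted p = 0.493), did not pass, and none of the 5 immunoproteasome genes was lower. Psme1, a proteasome activator subunit, was higher (0.63 ± 0.24, adjusted p = 0.0436), but in 4 of 8 alternatives it did not pass. Immune-rich spots hold few cardiomyocyte transcripts, so these differences compare mixtures of cells.

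**Figure D5:**
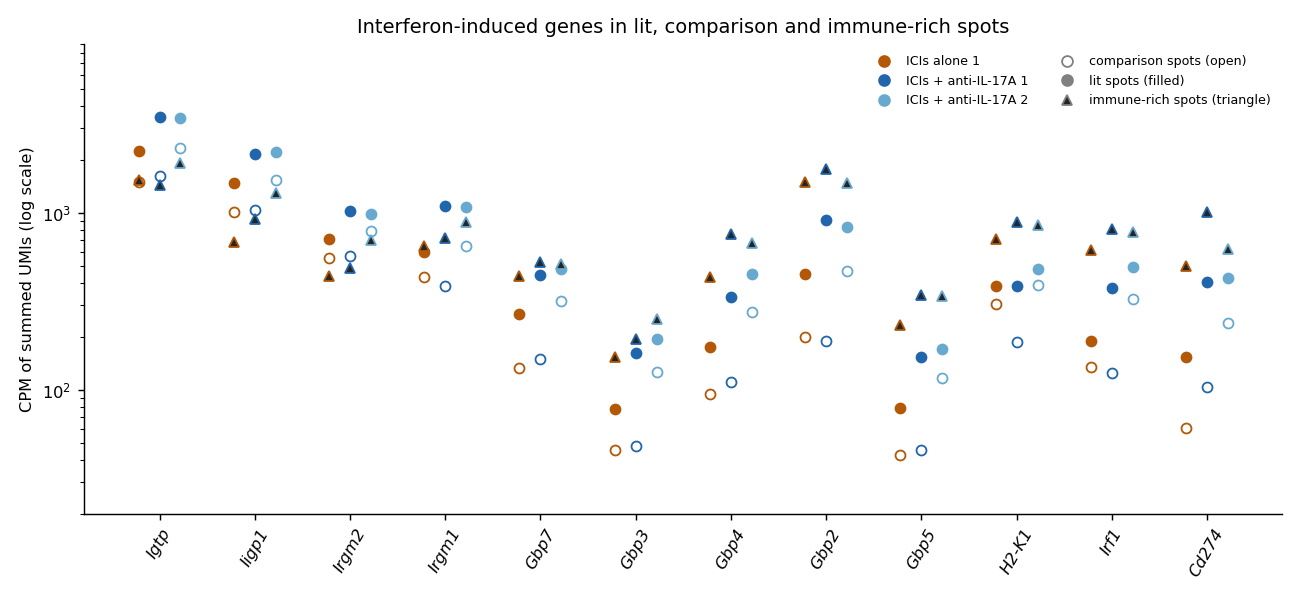
CPM of summed UMIs on a log axis for 12 interferon-induced genes in 3 sections, with filled circles for lit, open circles for comparison and triangles for immune-rich spots. Igtp, Iigp1 and Irgm2 are highest in lit spots in all 3 sections, while Gbp2, Gbp4, Gbp5, H2-K1, Irf1 and Cd274 are highest in immune-rich spots.

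The last comparison asked whether lit spots themselves differed with the antibody. It sets 2 antibody sections against the 30 lit spots of ICI-alone section 1, a sum of 617489 UMIs in which 1 UMI is 1.62 CPM. The lone section is assumed to vary like the antibody sections, with 1 residual degree of freedom, so the ICI-alone arm has no replicate check. Of 13318 genes tested, 47 were higher (0.353%) and 27 lower (0.203%) with the antibody by edgeR, 0.556% together, and DESeq2 called 13 and 4.

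Some interferon-induced genes were higher in the lit spots of the antibody sections, and most members of their lists did not pass. Socs1 stood at 29.2 CPM with ICIs alone and at 123 and 160 CPM with the antibody (log2 fold change 2.20 ± 0.32, adjusted p = 2.62e-05). Cxcl10 stood at 53.4 against 191 and 200.2 CPM (1.80 ± 0.28) and Ifit3 at 22.7 against 95.5 and 83.8 CPM (1.91 ± 0.34, adjusted p = 0.000904). Cd274 stood at 154 against 408 and 428 CPM (1.37 ± 0.23). Of the 10 GTPases, 4 were higher and none lower, among them Gbp2 (0.87 ± 0.21), and of 29 type I interferon stimulated genes 5 were higher. Hist1h1d, a linker histone of dividing cells, stood at 13.0 CPM (8 UMIs) against 89.4 and 89.6 CPM, and 2 of 12 proliferation genes were higher, Mki67 and Cdk1, each with 2 UMIs in the ICI-alone section. Ccl2, a monocyte attractant, had 1.63 ± 0.33. The GTPase and type I interferon lists were shifted upward in comparison spots too. There the 10 GTPases had a median log2 fold change of 1.13 with the antibody, all 10 positive, against 0.83 in lit spots. For the 29 type I interferon stimulated genes the medians were 0.41 in comparison and 0.90 in lit spots. In comparison spots Cd274 had 1.90 (adjusted p = 0.423) with the antibody, where 2 of 13532 genes were called (0.0148%), S100a9 and Prg4, both lower. With the batch number as a block the comparison spots gave 228 calls, 50 higher and 178 lower.

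Adipocyte genes were among those lower in lit spots of the antibody sections than in the 30 lit spots of ICI-alone section 1. In comparison spots the adipocyte list summed to 73.9 and 49.5 CPM in ICI-alone sections 1 and 2. It summed to 44.7 and 51.5 CPM in those of antibody sections 1 and 2, and 0 of 6 genes tested were called there. Car3, carbonic anhydrase of fat and muscle, stood at 82.6 CPM (51 UMIs) against 1.95 and 4.97 CPM (log2 fold change -4.58 ± 0.37). Cfd, adipsin, stood at 42.1 CPM (26 UMIs) against 2.14 and 3.16 CPM, and Plin1, a lipid droplet protein, at 11.3 CPM (7 UMIs) against 0.39 and 0.451 CPM. Of the 4 adipocyte genes tested, 3 were lower, and the 8-gene adipocyte list summed to 118 CPM in these 30 spots against 36.2 and 49.1 CPM. Myom2, an M-band protein, and Myl1, a fast muscle light chain, had -1.31 ± 0.20 and -1.29 ± 0.20, while 1 of 16 ventricular sarcomere genes was lower and none higher. Igfbp5, which binds insulin-like growth factors, had -1.64 ± 0.22. With Myh6 at 2% or more only Car3 and Lrtm1 passed, with 9 genes after thinning and 11 among leukocyte-poor spots.

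Whether the step from comparison to lit spots differed with the antibody was tested as an interaction. It rests on 1 ICI-alone section and has 1 residual degree of freedom. On simulated counts it recovered 63 of 100 4-fold and 12 of 100 2-fold changes, so a lack of calls does not show a lack of difference. None of 14874 genes passed by edgeR (0%), with 1068 at an unadjusted p under 0.05, and DESeq2 called 7. Without atrial-rich spots 75 passed. The steps of Gbp2 and Ifit2 differed by 0.41 and 0.39 on the log2 scale (adjusted p = 0.867 and 0.838, edgeR).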

How the data were processed

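Visium libraries of 4 heart sections were analysed, 2 per treatment group; groups come from the labels' treatment field and replicate numbers from their batch. The deposited matrices hold unnormalized UMI counts for each spot, written by Space Ranger 2.1.0 per the file headers. The submitters' processing notes name mm10 and Seurat 5.1.0. The authors also deposited per gene and section a score, Moran's I, with an adjusted p-value that is not used here, and the summed counts.

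The members and gene lists were chosen with earlier results of these data known. Sums per section and class were filtered with filterByExpr, scaled with TMM and tested in edgeR 4.0.16 (R 4.3.3, limma 3.58.1) at an adjusted p of 0.05, with Gbp6, Myh6 and Myh7 left out. The labels' batch number is shared across groups and pairs the sections; the correlation of same-batch deviations in comparison spots was 0.247, from 2 pairs. Printed CPM are scaled by library size alone. The fits were checked on simulated data. Alternatives were DESeq2 1.42.0, its size factors, library size alone, other count filters, other spot limits, thinning, leaving out each section or atrial-rich spots, no section block, and limma on log values. Named genes are a set panel, the 15 largest rises and 10 largest falls per test with at least 10 CPM, and up to 4 per list by p. Irgm2, Iigp1 and Fgf12 between lit and comparison spots, Ccl2 within lit spots, Gbp4 and H2-T24 against immune-rich spots, Lrtm1, and the 2 genes called in comparison spots were chosen after their values were seen. A step joins adjacent spots of the hexagonal array, where a spot touches at most 6 others. Of 503 list genes, 474 were measured; Isg15, of the panel, was not analysed here, and 1 other panel gene is not reported here and was taken out of its list.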

Additional observations from a re-analysis of the deposited data

Results flagged for a closer look

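A total of 6 of the genes named between lit and comparison spots moved one way in ICI-alone section 1 and the other way in both antibody sections. In log2 of CPM plus 0.5, lit over comparison, ICI-alone section 1 had -1.03 for Ccl17, -1.79 for S100a8, 1.09 for Fgf12, -0.10 for Cd68, -0.061 for H2-D1 and 0.069 for Atp2a2. Ccl17, S100a8 and Fgf12 rested on 0, 3 and 2 UMIs in the lit spots of that section. The interaction test called none of them, with adjusted p of 0.736 for Ccl17, 0.69 for S100a8 and Fgf12, 0.71 for Cd68, 0.859 for H2-D1 and 0.957 for Atp2a2 (edgeR). Groups of 2 and 3 sections are too small to look for outlying values.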

How the results depend on the processing

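Counts of genes past the threshold moved widely. Between lit and comparison spots the count went from 23 to 79 with DESeq2, 3 with its size factors, 0 with library size alone, 436 with no filter, 1 at 10 CPM or more, 0 and 525 at Gbp6 limits of 400 and 1600 CPM, 0 in spots of 10000 or more UMIs, 221 with Myh6 at 2%, 4 at 2 or more steps from immune-rich spots, 126 in leukocyte-poor spots, 97 against comparison spots under 400 CPM, 422 after thinning, 1 without atrial-rich spots, 1 with no section block, 1 with limma and 0 to 345 without 1 section. S100a8 (0.42) reversed to -0.19 with Myh6 at 2%, -1.35 with no section block and -0.17 with limma. The interaction count of 0 became 7 with DESeq2, 2 at 400 CPM, 1 with Myh6 at 2%, 3 in leukocyte-poor spots, 9 after thinning and 75 without atrial-rich spots.

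Within lit spots the 74 calls became 17 with DESeq2, 236 at 400 CPM, 125 at 10000 UMIs, 2 with Myh6 at 2%, 11 in leukocyte-poor spots and 9 after thinning. In comparison spots the 2 calls became 123 with DESeq2, 0 with library size alone, 21 with no filter, 0 at 10 CPM, 5 and 4 at Gbp6 limits of 400 and 1600 CPM, 1 at 10000 UMIs, 4 with Myh6 at 2%, 72 in leukocyte-poor spots and 0 to 1234 without 1 section. With the replicate block, which pairs sections by batch, the count was 228. No paired analysis was possible because only 1 ICI-alone section held lit spots, for the comparison within them; leave-outs and the 1600 CPM limit could not be fitted there or for the interaction either.

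Against immune-rich spots, without 1 section Psmb8 ranged from -0.29 to 0.030 and Psmb9 from -0.39 to 0.14, both above 0 without ICI-alone section 1. The share difference of 42.1 points became 6.72 at 1600 CPM and 26.1 to 58.0 without 1 section. The cause of these changes was not tested. The 30 lit spots of ICI-alone section 1 limit the comparisons of lit spots between groups.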
